A study of Mus musculus with 23 samples.

Results

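Hepatic gene expression was compared between mice that inhaled carbon black (CB, 8 mice) and mice that inhaled diesel exhaust particles (DEP, 7 mice), using every array whose title names CB or DEP, 15 of the 23 arrays of the series. The mice were female C57BL/6 animals of 12 to 13 weeks by the labels, with no transgene or deleted gene in any group. Both groups breathed 20 mg/m3 of particles for 90 min on 4 consecutive days, and whole liver was taken 90 min after the last exposure by the labels; the study's methods give 10-12 weeks and 1 h. CB was Printex, a nearly pure carbon powder, and DEP was a standard reference diesel soot. The 8 mice that breathed filtered air are given as the background level and took no part in the tests. Each mouse had 1 array, on which its liver RNA carried Cy5 and a universal mouse reference RNA carried Cy3, and all values below are log2 ratios of liver to reference, or differences of such ratios (CB minus DEP). Limma tested the differences of those 18688 features, out of 22575, that have a listed gene, with Benjamini-Hochberg adjustment over all of these and 0.05 as the threshold.

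Diesel particles have a carbon core that carries organic compounds, among them polycyclic aromatic hydrocarbons, whereas carbon black carries very little. Many of these hydrocarbons bind the aryl hydrocarbon receptor, a transcription factor that then enters the nucleus, pairs with ARNT and switches on genes that hold its short recognition element, whose core is GCGTG. In liver its best known targets are the cytochrome P450 enzymes of family 1, which oxidise the hydrocarbons, and the repressors AHRR and TIPARP, which end the signal. The comparison of CB with DEP asks whether the organic load of the diesel particles gave the liver a different profile from carbon particles at the same mass concentration. By the study's methods CB also had the larger specific surface area, and the part of surface in any difference was not tested.

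No gene differed between the CB and DEP mice by the test. Of 18688 features, limma called 0 (0.0%), and the smallest adjusted p was 0.9998. An unadjusted p under 0.05 was found for 580 features (3.1% of those tested), 277 higher and 303 lower in the CB mice, and 3 features had an unadjusted p under 0.001. These 3 were Rab43, Nvl and Cyp2c39. The log2 difference was above 0 for 9328 features (49.9%) and below 0 for 9360 (50.1%). Of all features, 95% had a log2 difference between -0.28 and 0.294, 72 features (0.385%) differed by more than 1.5-fold and 3 by more than 2-fold. The group means of the CB and DEP mice correlated at r = 0.9912 across features, which are not independent replicates.

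The width of the intervals shows what sizes of difference the arrays could have missed. Among the 12656 features that had no saturated spot and were present on at least 8 of the 15 arrays, the 95% confidence interval of the difference lay within 1.5-fold in either direction for 11164 (88.2%) and within 2-fold for 12373 (97.8%). At the median of these features the interval reached 0.252 to either side on the log2 scale. Features near the background or at the top of the scanner's range have compressed ratios, and their intervals give no such limit.

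The mice came from 3 rounds of exposure that were shared unevenly, the first holding 1 CB and 1 DEP mouse, the second 6 CB and 2 DEP mice and the last 1 CB and 4 DEP mice. With the exposure round as a block limma again called 0 features (0.0%), with a smallest adjusted p of 0.9996. An unadjusted p under 0.05 was then found for 651 features (3.48%), 274 of which were among the 580, and each of the 580 had the same sign in both fits. The interval then reached 0.301 to either side at the median over all features, against 0.259 without the block. Taken as shares of the sum of squares, averaged over features, the particle held 6.2% with 1 of 14 degrees of freedom (7.14% of them) and the round 14.7% with 2 (14.3%). The array set, a run of neighbouring array numbers, held 31.9% with 4 (28.6%), and the exposure day 37.5% with 5 (35.7%). The mean share of the particle was thus below its share of the degrees of freedom, and those of round, set and day were above theirs. By the median over features the shares were 3.08% for the particle, 11.4% for the round, 29.7% for the set and 35.6% for the day. Only that of the set was then above its share of the degrees of freedom. Exposure days 1 and 5 held DEP but no CB mice, and days 2 and 4 CB but no DEP mice. Day and particle thus cannot be fully told apart.

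Arrays correlated about as well between the particles as within them. The median correlation between 2 arrays, over 13098 features, was 0.948 for the 28 pairs of CB mice, 0.937 for the 21 pairs of DEP mice and 0.946 for the 56 pairs of 1 CB and 1 DEP mouse. The nearest array was of the same particle for 9 of the 15 arrays, of the same round for 9 and of the same array set for 5. DEP mice lay at both ends of the first principal component, with DEP mouse 55 at -27.8 and DEP mouse 51 at 33.2, and the CB mice lay between them, from -18 (mouse 835436) to 19.6 (mouse 445).

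**Figure D1:**
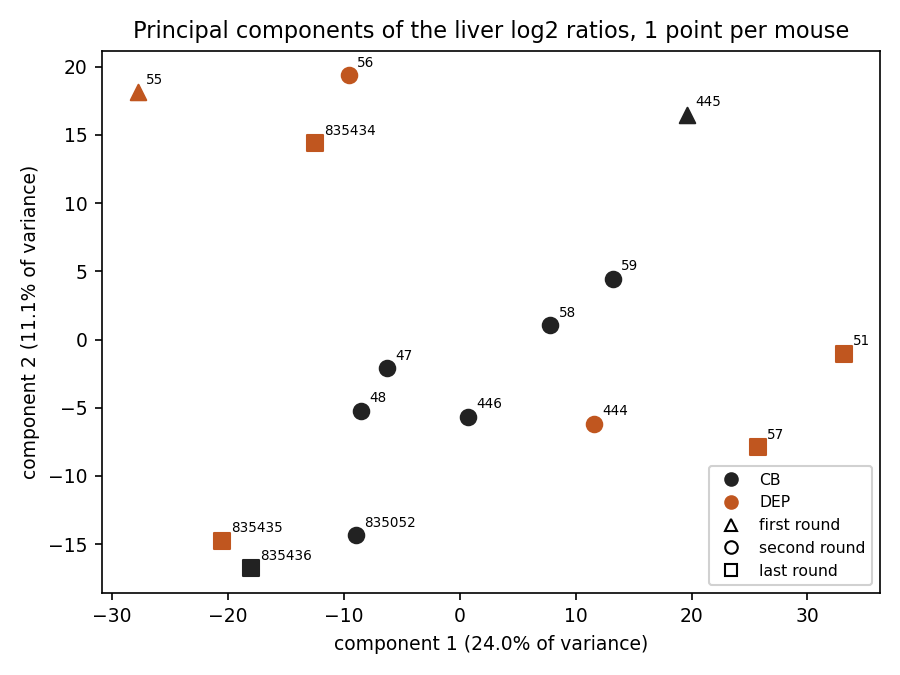
First and second principal components of the log2 ratios, in the units of the summed log2 ratios, with 1 point per mouse, CB in black and DEP in orange, and the marker shape giving the exposure round. The first component holds 24.0% and the second 11.1% of the variance, and the CB mice lie between DEP mice on the first.

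No measure of array quality separated the groups by its test. The median Cy5 signal was 241 to 477 in the CB arrays and 272 to 421.5 in the DEP arrays, and 25.2% to 44.5% and 23.4% to 42.0% of the features were flagged absent in Cy5. Over 6 such measures the smallest p of a two-sided exact permutation test (6435 arrangements) was 0.103, for the share absent in Cy3, with an adjusted p of 0.618. The tissue matched its label: albumin (Alb) was saturated on all 15 arrays, and transthyretin (Ttr) had a log2 ratio of 5.13 ± 0.58 (SD, n = 8) in the CB and 5.25 ± 0.44 (SD, n = 7) in the DEP mice. Markers of 10 cell types were read, and 0 of them had an unadjusted p under 0.05. All 6 pancreatic acinar markers were lower in the CB mice (50.1% of all features were, and 4 of the 6 with the Cy5 signal alone), with a median log2 difference of -0.15 (-0.066 with the round as a block) and -0.27 (95% interval -0.54 to 0.01) for Cela1, a pancreatic elastase. Their mean log2 ratio ranged over mice from 0.475 to 0.864 in the CB group, 0.536 to 1.21 in the DEP group and 0.523 to 0.972 in the air group, and the part of such RNA in any result was not tested. The 8 Kupffer cell and macrophage markers had a median difference of -0.081 and the 8 neutrophil markers one of -0.011, 6 of these last being flagged absent on most arrays. In whole liver, fewer cells of a type and less RNA per cell cannot be told apart.

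**Figure D2:**
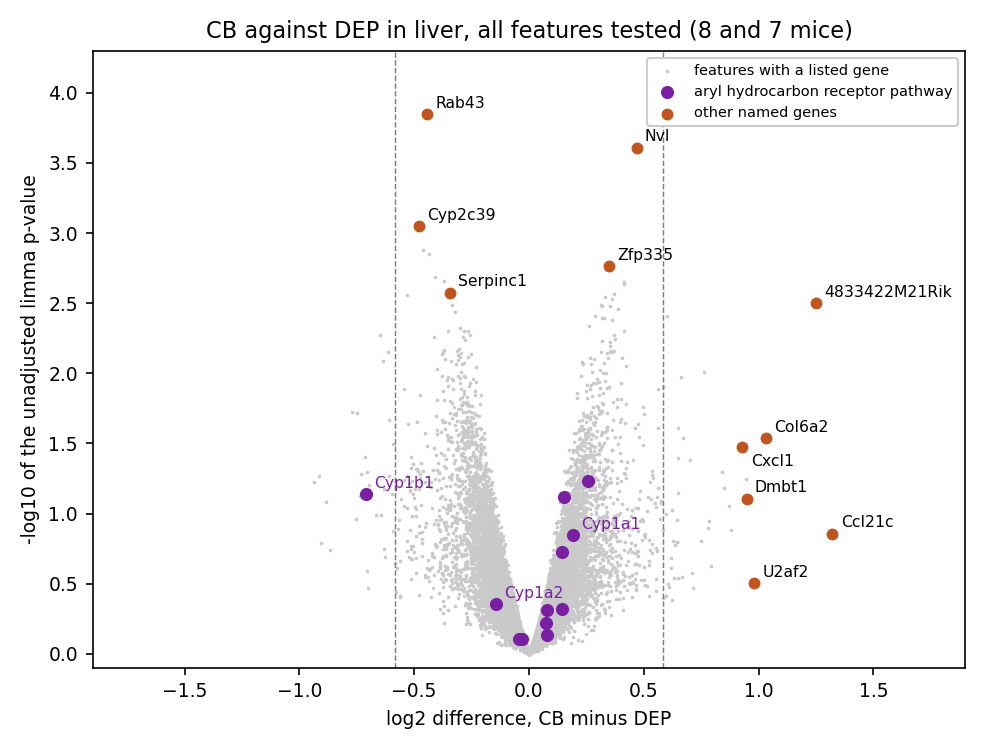
Log2 difference (CB minus DEP) against -log10 of the unadjusted limma p for the 18688 features tested, with the aryl hydrocarbon receptor pathway in purple and other named genes in orange. Dashed lines mark 1.5-fold; of the pathway, Cyp1b1 lies beyond them, on the side where DEP is higher.

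The aryl hydrocarbon receptor pathway did not separate the particles. Of its 12 measured genes, 8 were higher and 4 lower in the CB mice (4 and 8 with each array centred on its median in place of loess, which put 34.6% of all features higher), 0 had an unadjusted p under 0.05 (3.1% of all features did) and 0 were called. The median log2 difference was 0.079, against -0.00027 over all features. Of the 10 members measured with no saturated spot and present on most arrays, 9 had a 95% interval within 1.5-fold, the exception being Cyp1b1. With the round as a block the intervals of Ahr (-0.67 to 0.41) and Nqo1 (-0.26 to 0.73) also reached beyond 1.5-fold (0.585 on the log2 scale).

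The proximal promoters of Cyp1a1, Cyp1b1 and Ahrr are shown with the receptor's core motif, read on both strands (GCGTG or its complement CACGC), in capitals. They are the 250 bases before the annotated start in RefSeq on GRCm38.p6, printed 5′ to 3′ on the gene's strand, at chr9:57697363-57697612 (plus strand) for Cyp1a1, chr17:79715062-79715311 (minus strand) for Cyp1b1 and chr13:74292332-74292581 (minus strand) for Ahrr.
Cyp1a1: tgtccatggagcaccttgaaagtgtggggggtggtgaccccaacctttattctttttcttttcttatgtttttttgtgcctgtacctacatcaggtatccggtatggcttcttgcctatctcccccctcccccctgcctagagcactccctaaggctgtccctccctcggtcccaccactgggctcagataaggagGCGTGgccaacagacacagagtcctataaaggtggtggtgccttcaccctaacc
Cyp1b1: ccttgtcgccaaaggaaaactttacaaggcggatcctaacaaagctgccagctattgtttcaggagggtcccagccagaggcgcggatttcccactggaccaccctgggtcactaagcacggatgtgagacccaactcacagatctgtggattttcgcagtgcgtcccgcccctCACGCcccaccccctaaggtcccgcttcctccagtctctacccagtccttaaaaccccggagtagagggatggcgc
Ahrr: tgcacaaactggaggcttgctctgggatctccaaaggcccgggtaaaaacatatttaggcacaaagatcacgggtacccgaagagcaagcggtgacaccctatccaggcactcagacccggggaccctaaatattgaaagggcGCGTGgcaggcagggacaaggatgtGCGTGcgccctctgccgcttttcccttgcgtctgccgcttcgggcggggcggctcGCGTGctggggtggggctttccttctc
Of the 12 members 9 had an entry, and 6 of these held the core, as did 28.2% of 32851 promoter windows of this length. The entries without the core were those of Cyp1a2, Nqo1 and Gsta1. The longer form TNGCGTG, which overlaps the core, was in the window of 1 member, Ahrr, and in 4.1% of all windows. A match is a run of letters and no proof of a site, and elements farther upstream are not in these windows.

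Cyp1a1 encodes the enzyme most often used as a gauge of receptor activity. Its log2 ratio was -0.04 at the lowest, 0.21 at the median and 0.88 at the highest in the 8 CB mice, and -0.22, 0.14 and 0.40 in the 7 DEP mice. The air mice lay between 0.06 and 0.55, and all 3 groups overlapped. The difference was 0.19 (95% interval -0.07 to 0.45), so the mean was lower in the DEP mice by less than the interval resolves. Its Cy5 spot was flagged absent on 7 of 8 CB and 6 of 7 DEP arrays, which leaves the ratio close to background.

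Cyp1a2, the family member that healthy liver makes in bulk, was bright on every array. Its log2 ratio was 2.75, 3.55 and 3.83 (lowest, median, highest) in the CB mice and 3.16, 3.67 and 4.11 in the DEP mice, with air mice from 3.06 to 4.05. The difference was -0.14 (95% interval -0.53 to 0.24), and the ranges of the groups overlapped.

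Cyp1b1, the extrahepatic member of the family, had the widest spread of the pathway. In the CB mice its log2 ratio ran from -1.57 over a median of -1.37 to -0.82. In the DEP mice the median was -1.31, and 5 of the 7 lay between -1.53 and -0.89. DEP mouse 56, of the second round, stood at 1.49 and DEP mouse 835435, of the last round, at 0.64, and among the air mice mouse 835433 stood at 0.61. The difference was -0.71 (95% interval -1.50 to 0.07, adjusted p = 1.0 from limma). It was -0.997 (-1.91 to -0.08) with the round as a block, where Cyp1b1 was the 1 member at an unadjusted p under 0.05, and -0.36 without DEP mouse 56. The reference channel, which carried the same RNA on every array, itself differed by -0.63 for this feature, and the Cy5 signal alone by -1.28. The Cy5 spot of Cyp1b1 was flagged absent on 4 of 8 CB arrays and on 0 of 7 DEP arrays, which leaves those CB ratios close to background.

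The receptor, its partners and its repressors differed by -0.04 to 0.14 on the log2 scale, with 95% intervals that all held 0. Ahr, the receptor itself, differed by 0.08 (95% interval -0.39 to 0.55), and this difference was -0.13 with the round as a block. Arnt, its partner on DNA, differed by 0.08 (-0.16 to 0.32). Ptges3, the cochaperone p23 that holds the unbound receptor in its complex, differed by -0.03 (-0.25 to 0.19), and by 0.03 with the round as a block. Ahrr, the repressor of the receptor, differed by -0.04 (-0.38 to 0.29), or by -0.27 (-0.60 to 0.05) with the round as a block, and was flagged absent on 5 CB and 5 DEP arrays. Its highest log2 ratio, 0.72, was that of DEP mouse 56, also the highest mouse for Cyp1b1. Without this mouse the difference of Ahrr was 0.09. Tiparp, which modifies the receptor and damps its signal, differed by 0.14 (-0.08 to 0.36), with DEP values from -1.44 to -0.81 and CB values from -1.05 to -0.79.

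Targets that handle the products of the hydrocarbons also overlapped between the groups. Nqo1, a quinone reductase, differed by 0.14 (95% interval -0.27 to 0.56) and Aldh3a1, an aldehyde dehydrogenase, by 0.15 (-0.02 to 0.33). Gsta1, a glutathione transferase, differed by 0.07 (-0.22 to 0.37). Xdh, xanthine dehydrogenase, had the smallest p of the pathway. Its log2 ratio was 1.48, 1.79 and 1.98 (lowest, median, highest) in the CB mice and 0.97, 1.48 and 1.87 in the DEP mice, a difference of 0.26 (-0.01 to 0.53) with CB the higher group.

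**Figure D3:**
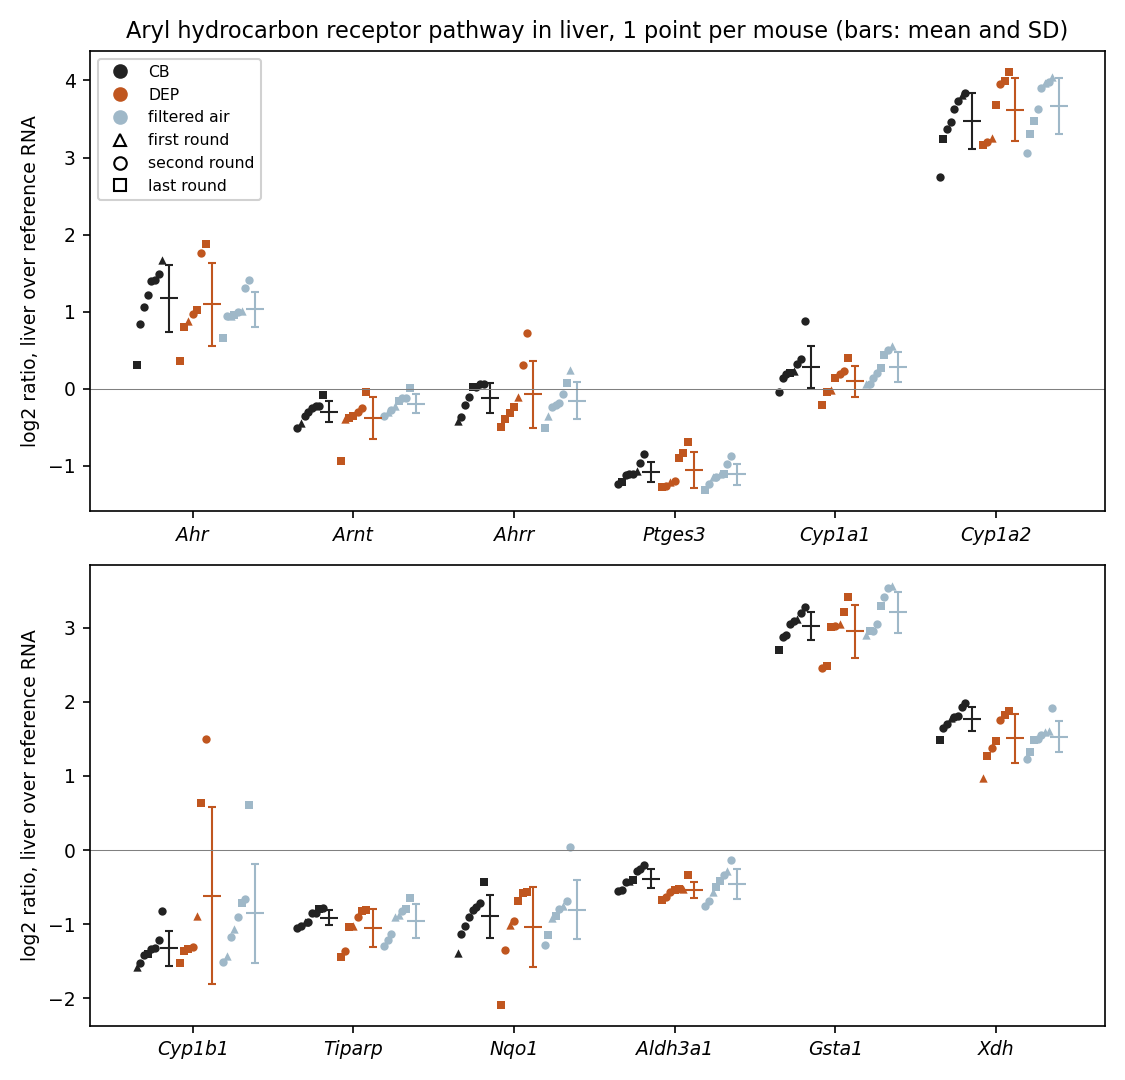
Log2 ratio (liver over reference RNA) of the 12 genes of the aryl hydrocarbon receptor pathway, 1 point per mouse, with CB in black, DEP in orange and filtered air in blue-grey; the marker shape gives the round and the bars the mean ± SD. The groups overlap for each gene, and 2 DEP mice and 1 air mouse stand apart at the top of Cyp1b1.

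Drug-metabolism and antioxidant lists had medians near 0 with loess. With median centring their medians lay between -0.18 and -0.14, where all features had a median of -0.069 and 34.6% were higher in the CB mice. NRF2 is the factor that switches on genes against electrophiles and oxidants, and of its 18 measured targets 9 were higher and 9 lower in the CB mice (2 and 16 with median centring), with a median log2 difference of 0.017 and 0 at an unadjusted p under 0.05. Gclm, a subunit of the enzyme that begins glutathione synthesis, differed by -0.22 (95% interval -0.48 to 0.03), and Hmox1, which breaks down haem, by 0.19 (-0.05 to 0.44). The 18 glutathione S-transferases with a value had a median of 0.013, and the 14 antioxidant enzymes and metallothioneins one of -0.0097, with 7 of the latter saturated on some array. Receptors CAR and PXR respond to drugs, and their 15 genes had a median of -0.0021, with 0 at an unadjusted p under 0.05.

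Cyp2c39, a cytochrome P450 of the 2C family that oxidises retinoic acid (NM_010003), was the drug-metabolism gene with the smallest p, and it is not in those lists. Its log2 ratio was 2.86, 3.50 and 3.665 (lowest, median, highest) in the CB mice and 3.669, 3.83 and 4.203 in the DEP mice. The highest CB spot (mouse 59) and the lowest DEP spot (mouse 51) were both saturated in Cy5, so their order is not measured and it cannot be said whether the ranges overlapped. With Cyp2c39 counted by these values, the ranges did not overlap for 5 features (0.0268% of those tested). The air mice spread from 2.43 to 4.69, the highest being a saturated spot too. The difference came to -0.48 with a standard error of 0.12 (limma adjusted p = 1.0), and to -0.62 with the round as a block. The reference channel alone differed by 0.54 and the Cy5 signal alone by -0.04, each centred on the median of its array. The part of either channel in the difference of the ratio was not tested. Some Cyp2c genes are close in sequence, and whether their features share signal was not tested. Of the 9 measured Cyp2c genes, 5 were lower in the CB mice, 1 (Cyp2c39) had an unadjusted p under 0.05 and the median difference was -0.0077.

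Rab43 encodes a small GTPase of traffic through the endoplasmic reticulum and Golgi apparatus (NM_133717) and had the smallest p of all features, with an adjusted p of 1.0 from limma. Its log2 ratio was 0.00, 0.23 and 0.35 (lowest, median, highest) in the CB mice and 0.43, 0.60 and 0.93 in the DEP mice. The ranges did not overlap, but the Cy5 spot was flagged absent on 3 CB arrays and 1 DEP array. That DEP array was of mouse 835435, the lowest DEP mouse, which leaves the edge of the DEP range close to background. The air mice ran from -0.19 to 0.88, below the lowest CB mouse at one end and short of the highest DEP mouse at the other. The difference was -0.44 (standard error 0.09), and -0.43 with the round as a block. It was -0.16 with the Cy5 signal alone, and the reference channel differed by 0.20.

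Nvl, a nuclear ATPase of ribosome assembly (NM_026171), differed the other way. The CB mice had log2 ratios of -0.04, 0.21 and 0.29 (lowest, median, highest) and the DEP mice of -0.77, -0.28 and -0.04, so that the highest DEP mouse met the lowest CB mouse. Air mice ran from -0.94 to 0.14. The difference came to 0.47 with a standard error of 0.10 (limma adjusted p = 1.0), to 0.44 with the round as a block, and 5 CB and 6 DEP spots were flagged absent.

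Of the other genes with the smallest p, 4833422M21Rik is given with the largest differences, and the rest follow here. Zfp335, a zinc finger factor, was 0.08 to 0.54 in the CB and -0.39 to 0.05 in the DEP mice, a difference of 0.35 (standard error 0.09), but 7 CB and 7 DEP spots were flagged absent. Sec24d, a coat protein of vesicles that leave the endoplasmic reticulum, was present on every array and differed by 0.41 (standard error 0.12). Lap3, a leucine aminopeptidase, differed by -0.27 (standard error 0.08) and Ptpn9, a tyrosine phosphatase, by -0.30 (0.09), or by -0.22 with the round as a block (95% interval -0.44 to 0.01). Serpinc1 encodes antithrombin, the liver's main inhibitor of clotting proteases, and was 3.93 to 4.53 in the CB mice, 4.47 to 4.96 in the DEP mice and 4.38 to 5.85 in the air mice. Its difference was -0.35 (standard error 0.10), while the Cy5 signal alone differed by -0.11 and the reference channel by 0.35. For Serpinc1, 1 CB spot and 2 DEP spots were saturated in Cy5, that of the lowest DEP mouse (51) among them. Also among the 10 smallest p-values on either side were A330033J07Rik, Prdm8, Olfr316, Zfp580, AI593442 and Art1, higher in the CB mice by 0.31 to 0.41, and Klhl15, Fam71d, Cnga3, Ccr1l1 and Rufy3, with differences of -0.53 to -0.32. Klhl15 and Fam71d were flagged absent on all 8 CB arrays, and Art1 on 7 CB and 7 DEP arrays. A330033J07Rik, Prdm8, AI593442 and Cnga3 were flagged absent on 2 to 6 CB and 3 to 6 DEP arrays.

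Of the 5 genes with the largest differences, Ccl21c and U2af2 depended on 1 mouse. Ccl21c, a chemokine of lymphatic vessels, and U2af2, a splicing factor, differed by 1.32 and 0.98, and both stood far up in CB mouse 835052 (log2 ratios of 8.46 and 7.65). Without that mouse the differences were 0.41 and -0.04. Dmbt1, a scavenger receptor of epithelia, differed by 0.95, and by 0.52 to 1.15 when any 1 mouse was left out. CB mice 58, 445 and 47 stood at 4.13, 2.27 and 2.02, above the highest DEP mouse at 0.80. The CB median of Dmbt1 was 0.43 against a DEP median of 0.20. Col6a2, a collagen chain, differed by 1.03 (95% interval 0.12 to 1.94), from -1.82 to 1.61 in the CB and from -2.70 to -0.12 in the DEP mice, and by 0.71 to 1.28 when any 1 mouse was left out. The RIKEN transcript 4833422M21Rik differed by 1.25 (0.48 to 2.02): 4 DEP mice stood at 0.84 to 1.68 and the other 3 at 2.91 to 3.42, within the CB range of 2.52 to 3.85. Its difference was 0.82 with the round as a block. It was 2.44 in the first round, 0.01 in the second and 1.34 in the last, and 1.05 to 1.48 when any 1 mouse was left out.

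**Figure D4:**
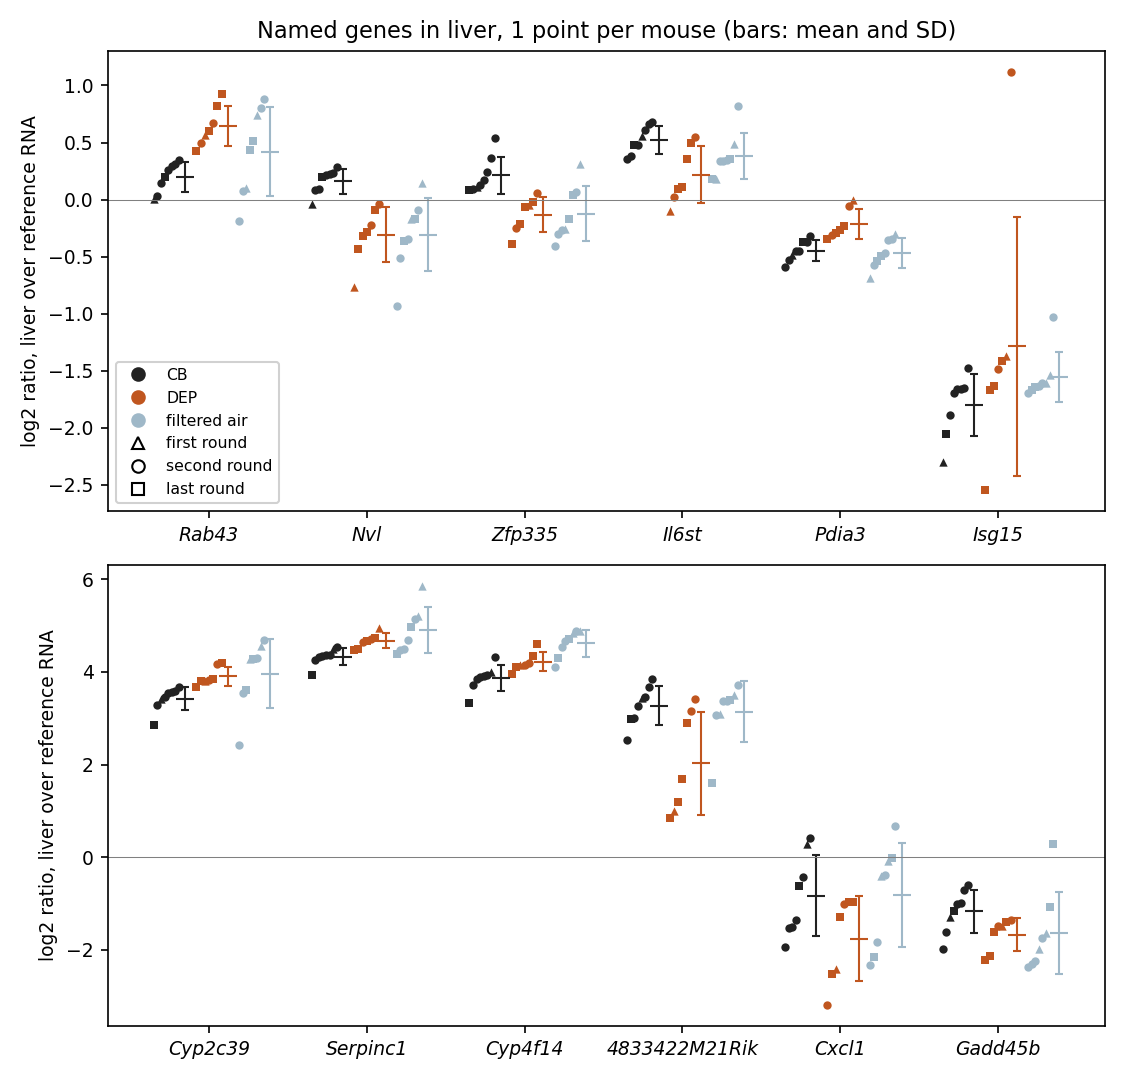
Log2 ratio (liver over reference RNA) of 12 named genes, 1 point per mouse, with CB in black, DEP in orange and filtered air in blue-grey; the marker shape gives the round and the bars the mean ± SD. For Rab43 the CB and DEP points do not overlap, though the lowest DEP point is a spot flagged absent, and air points run from -0.19 to 0.88. For Cyp2c39 the highest CB and the lowest DEP point are saturated spots whose order is not measured.

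Acute phase and inflammatory genes gave a few members with low p-values and no common direction. The acute phase proteins are those the liver secretes in inflammation, and of 20 with a value 10 were higher and 10 lower in the CB mice, with a median log2 difference of 0.013. With the round as a block this median was -0.12 and 2 members had an unadjusted p under 0.05, among them Fga, a fibrinogen chain, at -0.41 (95% interval -0.68 to -0.15) against -0.26 (-0.51 to 0.00) without the block, with 2 CB spots and 1 DEP spot of Fga saturated. The serum amyloid genes were among these: Saa1 differed by 0.12 (95% interval -0.16 to 0.41), Saa2 by -0.20 (-0.58 to 0.18) and Saa3 by -0.06 (-1.28 to 1.15). Cp, ceruloplasmin, the copper carrier of plasma, was the member with an unadjusted p under 0.05 without the block and differed by -0.32 (-0.60 to -0.03). Of 20 genes of cytokines and their signalling, 11 were higher and 9 lower in the CB mice, and 3 had an unadjusted p under 0.05 (3.1% of all features did). Cxcl1, a chemokine that draws neutrophils, was -1.93, -0.99 and 0.41 (lowest, median, highest) in the CB mice, -3.18, -1.28 and -0.97 in the DEP mice and -2.32 to 0.67 in the air mice. It differed by 0.93 (0.08 to 1.78) and by 1.27 with the round as a block. Il6st, the shared receptor chain of the interleukin-6 family, differed by 0.31 (0.09 to 0.53) at its brightest feature and by -0.25 at its other feature. Tnfaip3, which restrains NF-kappaB, differed by -0.29 (-0.52 to -0.06) and was flagged absent on 7 CB and 7 DEP arrays. The 13 interferon-stimulated genes had a median of 0.011. Among them Isg15, a ubiquitin-like antiviral protein, stood at 1.12 in DEP mouse 56, the mouse that was also highest for Cyp1b1, and at -2.54 to -1.37 in the other DEP mice. Its difference was -0.51 over all mice and -0.11 without that mouse, and it was -1.03 (-1.77 to -0.29) with the round as a block.

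Lists of DNA damage and protein stress also had medians near 0 with loess. With median centring these were -0.14 and -0.19, against -0.069 over all features. Of 18 DNA damage genes (median log2 difference 0.037), 1 had an unadjusted p under 0.05, Gadd45b, a stress-induced growth arrest gene that differed by 0.50 (95% interval 0.09 to 0.91), or by 0.38 (-0.11 to 0.87) with the round as a block. Its CB values ran from -1.99 to -0.60 and its DEP values from -2.21 to -1.36. Cdkn1a, the p53 target that arrests the cell cycle, differed by 0.04 (-0.51 to 0.58), and Ogg1, which removes oxidised guanine from DNA, by -0.06 (-0.30 to 0.19). Of 18 chaperones, 11 were lower in the CB mice (9 with the Cy5 signal alone), with a median of -0.067 and 2 at an unadjusted p under 0.05. These were Pdia3, a disulfide isomerase of the endoplasmic reticulum, at -0.23 (-0.40 to -0.07), and Dnajb1, a cochaperone of heat shock proteins, at 0.24 (0.00 to 0.49).

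Metabolic lists had medians between -0.12 and 0.17 with loess, and between -0.28 and 0.072 with median centring. Of 15 genes of cholesterol synthesis, 12 were higher in the CB mice (49.9% of all features were; 9 of the 15 with median centring), with a median log2 difference of 0.17 and 0 at an unadjusted p under 0.05. Sqle, squalene epoxidase, differed by 0.35 (95% interval -0.14 to 0.85), with a DEP standard deviation of 0.57. Mvd, mevalonate diphosphate decarboxylase, was among the 3 members lower in the CB mice and differed by -0.24 (-0.60 to 0.12). Fatty acid synthesis had a median of 0.074 over 13 genes (0.15 with the round as a block), and fatty acid oxidation under PPAR-alpha one of 0.053 over 17 genes, with Fgf21, a fasting hormone of the liver, at 0.34 (0.05 to 0.63). Of 9 gluconeogenic genes 7 were lower in the CB mice, with a median of -0.12. Bile acid genes (15) had a median of -0.084, and Cyp7a1, the rate-limiting enzyme of bile acid synthesis, differed by -0.32 (-0.94 to 0.30). Of 13 genes of glucocorticoid action and handling stress, 9 were lower, with Ier2, an immediate early gene, at -0.31 (-0.58 to -0.05) and Sgk1, a glucocorticoid-induced kinase, at 0.34 (0.05 to 0.63). With the round as a block Sgk1 differed by 0.14 (-0.14 to 0.41). The clock list (15 genes, median 0.057) had 2 members at an unadjusted p under 0.05, the repressors Cry1 at 0.23 (0.07 to 0.40) and Nr1d1 at -0.38 (-0.74 to -0.03). With the round as a block these were 0.19 (-0.0024 to 0.38) and -0.29 (-0.69 to 0.11), and both intervals held 0. Of the iron and haem genes, 9 had a value, with a median of -0.037.

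**Figure D5:**
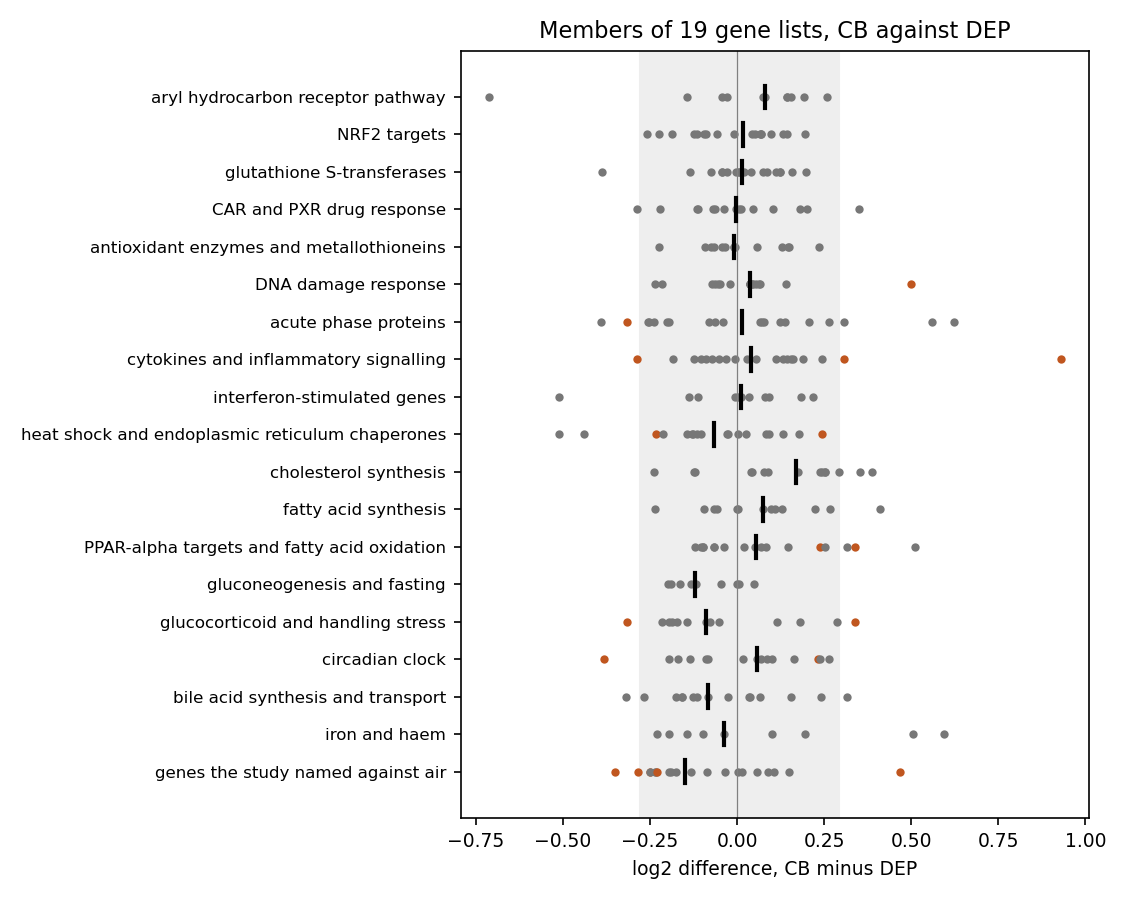
Log2 differences (CB minus DEP) of the members of 19 gene lists, 1 point per gene at its brightest feature, with black bars at the list medians and orange points for an unadjusted limma p under 0.05. The grey band holds 95% of all features (-0.28 to 0.294); list medians run from -0.15 to 0.17 and all lie inside it.

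The genes that the study had picked as changed against air were a list of 20 with a value, chosen on these same mice, and so give no independent evidence. Of them 13 were lower and 7 higher in the CB than in the DEP mice (10 and 10 with the Cy5 signal alone), with a median log2 difference of -0.15 and 5 at an unadjusted p under 0.05. Besides Nvl these were B4galnt2, a glycosyltransferase (-0.25, 95% interval -0.43 to -0.08), Cyp4f14, which oxidises fatty acids and leukotrienes (-0.35, -0.62 to -0.09), Aadacl2fm1 (-0.28, -0.50 to -0.07) and D630003M21Rik (-0.23, -0.42 to -0.04). Aadacl2fm1 was flagged absent on 6 CB and 5 DEP arrays. For Cyp4f14 the CB mice ran from 3.33 to 4.32 and the DEP mice from 3.96 to 4.60. Each group began below the air range of 4.11 to 4.88 and reached into it. The reference channel of Cyp4f14 differed by 0.74 and its Cy5 signal alone by 0.32, in the direction opposite to the ratio. Tmed3, a cargo receptor of the secretory pathway, differed by 0.09 (-0.10 to 0.28). Apoe and 1 other gene of that list were saturated on all 15 arrays and have no value. The study's real-time PCR did not bear out its array changes against air in Serpina3c, Apoe and Tmed3. Its authors called it possible that most genes of their list are false positives.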

How the data were processed

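Each array was scanned and its spots quantified by the authors, who deposited a linear intensity for every spot and dye, from which background had not been taken off. The authors flagged a spot as absent below a limit set by negative control probes, and deposited log2 ratios normalized by lowess within each array in R 2.4.1. RNA extraction is TRIzol and RNeasy by the labels and another kit by the study's methods. Dyes were not exchanged, so a dye bias of a feature is the same in both groups.

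The deposited intensities were turned into log2 ratios with loess inside each array (limma 3.58.1, R 4.3.3), for 18688 features with a listed gene (3887 others could not be told from control spots). The 8 CB and 7 DEP arrays were fitted with lmFit and eBayes without covariates, two-sided. The study's MAANOVA test was not available, and limma replaced it. A spot at 65535 was taken as saturated, and a gene saturated on all 15 arrays was given no value. Where a gene had several features, the brightest stood for it in the lists (18658 features had 1 symbol and 30 several). Array numbers limit the precision of every value. The sources give each mouse a round and a day of exposure, which the fit leaves out, and its p-values measure the spread between these mice.

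The named genes are, in each direction, the 10 with the smallest p because none passed the threshold, then the 5 with the largest change, all of the aryl hydrocarbon receptor pathway and the 2 to 4 members of every other list that had the smallest p. Other genes the text names, such as the Saa genes, Cdkn1a, Ogg1, Cyp7a1 and Cela1, fall outside this rule and were chosen after their values were seen. Members, lists (19 of genes, 10 of cell markers) and tests were chosen with earlier results of these data known. For 38 list genes no feature matched, and these were not analysed here. As alternatives stood the authors' log2 ratios, median centring, the Cy5 intensity alone, Aquantile, normexp with an offset of 50, a filter on absent features, all features, round, array set or day as a block, single rounds, air arrays in the model, array weights, a threshold of 0.1, the mean of a gene's features and the loss of each mouse in turn. Simulated data with known changes were used to check the fit.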

Additional observations from a re-analysis of the deposited data

Results flagged for a closer look

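In each group of 7 or 8 mice, the highest and the lowest mouse of every named gene were checked for a gap to the next mouse that was large against the group's range (Dixon's criterion at the 95% level). Of 148 tests of a gene in a group 15 were past it. Chance alone passes about 1 in 20 only where genes are not picked by their values. Many of these genes were picked by their values on these same mice, so the count cannot be set against that rate. All values are log2 ratios of liver to reference, and no cause was tested.

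CB mouse 835436, the only CB mouse of the last round, was lowest for Cyp2c39 (2.86), Serpinc1 (3.93) and Gpt (2.69). CB mouse 835052 was highest for Ccl21c (8.45), U2af2 (7.65) and Ifit2 (-0.116). Among the other CB mice, mouse 58 was highest for Cyp1b1 (-0.818), mouse 59 highest for Cyp1a1 (0.882), mouse 445 lowest for Sqle (0.231) and mouse 446 lowest for Aadacl2fm1 (-0.669). Of the DEP mice, mouse 56 was highest for Isg15 (1.12), mouse 444 highest for Neil1 (0.819), mouse 57 highest for Acaca (0.47), mouse 835435 highest for Aldh3a1 (-0.334) and mouse 51 lowest for Arnt (-0.931).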

How the results depend on the processing

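The count of called features stayed at 0 under every alternative but the last round alone, leaving out any single mouse included. The last round gave 31 called features, 25 of them higher in CB. It holds 1 CB mouse (835436), which is assumed to vary like the DEP mice. Of the 31, 0 had an unadjusted p under 0.05 over all rounds and 0 were called in the second round alone, where 16 had the same sign. Features over 1.5-fold (72) became 530 with the Cy5 signal alone, 151 with normexp, 147 with the round as a block, 321 in the second round alone, 1508 in the last round alone and 79 to 116 without 1 mouse. Features at an unadjusted p under 0.05 (580) became 1344 with median centring, which moved the median of all features by -0.069, 364 with the filter on absent features (13137 kept) and 523 to 771 without 1 mouse. Aquantile leaves the ratios as they are. No paired analysis was possible because the mice carry their own numbers and the groups share none.

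Of the 74 named genes, 49 kept the sign of their log2 difference under every alternative run. For the others the cause was not tested, and the values with the other sign were these. The last round alone gave -0.026 for Olfr316, -0.054 for Ccl21c, -0.073 for U2af2, -0.13 for Xdh, -0.34 for Gsta1, -0.71 for Ahr, 0.38 for Ahrr, -0.23 for Hmox1, -0.31 for Gstm5, -0.31 for Gstt2, 0.062 for Neil1, 0.076 for Mvd, -0.075 for Elovl6 and -0.028 for Slco1b2. Median centring gave -0.10 for Tiparp, -0.092 for Nqo1, -0.10 for Gsta1, -0.077 for Ahr, -0.0073 for Hmox1, -0.065 for Gstm5 and -0.024 for Gstt2. The Cy5 signal alone gave -0.065 for Nqo1, -0.41 for Ahr, 0.021 for Ahrr, -0.015 for Hmox1, -0.13 for Gstm5, 0.046 for Cyp2c37, 0.046 for Fga, 0.053 for Tnfaip3, 0.21 for Hamp, 0.32 for Cyp4f14 and 0.069 for Aadacl2fm1. The array set as a block gave -0.00092 for U2af2, -0.0083 for Gsta1 and -0.11 for Ahr, and the round as a block -0.13 for Ahr and 0.032 for Ptges3. The second round alone gave -0.034 for Arnt, -0.13 for Ahr, 0.17 for Ptges3 and 0.021 for Abcg8. Without 1 mouse, U2af2 ran from -0.036 to 1.15, Nqo1 from -0.032 to 0.22, Arnt from -0.013 to 0.14, Gsta1 from -0.0093 to 0.15, Ahr from -0.044 to 0.21, Ptges3 from -0.067 to 0.030 and Ahrr from -0.11 to 0.089. Of 870 list medians under an alternative, 34 moved by more than 1 SD of the list's median between mice.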
